A study of Mus musculus with 4 samples.

Results

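The 45 genes described here encode the machinery that takes a new secretory protein from the ribosome into the endoplasmic reticulum (ER) and out again: signal recognition, the translocon, signal peptidase, N-glycosylation, the COPII vesicle coat and cargo receptors. They were taken by symbol from the deposited table of 55401 gene identifiers, and all 45 were found once each. The table held RNA-seq counts of tissue lying beside pancreatic tumours of mice, with Panc02, a mouse pancreatic ductal adenocarcinoma line, named as the cell line. Each of 2 genotypes had 2 libraries: wild-type (WT 1 and WT 2) and CRFR1-KO (CRFR1-KO 1 and CRFR1-KO 2, the knockouts), in which the receptor for corticotropin-releasing factor was conditionally deleted. Mast cells are named in the series title, but the cell type in which the deletion was made is not given in the sources used here, nor are strain, sex and age. Whether each library came from a separate animal is not stated either, so a p-value speaks for the spread among the 4 libraries at hand and that spread may be technical. Crhr1, the targeted gene, had a count of 0 in every library and gives no check of the genotypes. Where values are given in pairs, library 1 comes before library 2.

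A signal peptide emerging from the ribosome is bound by the signal recognition particle (SRP), which docks at its receptor on the ER and hands the chain to the Sec61 channel. Signal peptidase removes the signal, oligosaccharyltransferase adds the N-linked glycan, and the finished cargo is packed into COPII-coated vesicles bound for the Golgi. Acinar cells of the exocrine pancreas make and export digestive enzymes through this route and are a classical system in which it was worked out.

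All 45 genes had counts in every library, and none passed the test between genotypes. In every library each had at least 189 counts, out of between 63495457 and 71203640 per library, and all 45 passed the filter on low counts. Their mean levels ran from 3.49 counts-per-million (CPM, on library sizes scaled by the trimmed mean of M values, TMM) for Sec23a to 149.8 CPM for Tram1, with a median of 39.0 CPM against 3.16 CPM over all 15131 genes tested. Per kilobase (kb) of annotated exon the same genes marked the ends, at 0.721 CPM per kb for Sec23a and 47.4 CPM per kb for Tram1. Per kb of the longest coding transcript Sec23a stayed lowest (0.849), but Ssr4 was highest (129.3), above Tram1 (51.0). As a share of all counts they made up 0.264% and 0.224% of the wild-type libraries and 0.201% and 0.237% of the knockouts. In the edgeR quasi-likelihood test, 0 of the 45 passed an adjusted p of 0.05, against 0.0264% of all genes tested (smallest adjusted p among the 45, 0.9999). Ssr2 alone had an unadjusted p under 0.05 in edgeR, as it did in the DESeq2 Wald test and in limma-voom, where 0 of the 45 passed the adjustment as well, against 0.383% and 0.0% of all genes. With the replicate number as a block, 0 of the 45 had an unadjusted p under 0.05, and neither did Ssr2 when WT 2 or either knockout was left out. Over all genes tested, edgeR gave an unadjusted p under 0.05 to 4.86%, and to 3.15% in the direction of Ssr2, lower in the knockouts.

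In direction, 26 of the 45 genes lay lower and 19 higher in the knockouts, with a median log2 fold change of -0.05 beside -0.0063 over all genes tested. The share lower was 57.8%, against 50.8% of all genes tested and 47.6% of those with a mean of at least 5 CPM. Scaled on library totals, 38 lay lower and 7 higher, but that scaling moved the median of all genes to -0.13, and the 45 genes, at -0.17 stood below it by 0.04, as under TMM. Without WT 2, 22 lay lower and 23 higher, with a median of 0.0038. Without WT 1, 30 lay lower and 15 higher, with a median of -0.10. Fold changes ran from -0.49 (Ssr2) to 0.28 (Sec62) on the log2 scale. None of the 45 differed by more than 0.5 on the log2 scale, a size exceeded by 23.2% of all genes tested and by 5.16% of the 5906 genes with a mean of at least 5 CPM, a level that 44 of the 45 reached. The 95% interval of the difference lay within a 2-fold change either way for all 45 genes and within 1.5-fold for 29. The lowest bound was -0.92, for Ssr2 and the highest 0.70, for Sec61g. In bulk tissue, a change in the number of acinar cells and a change in RNA per cell cannot be told apart.

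**Figure D1:**
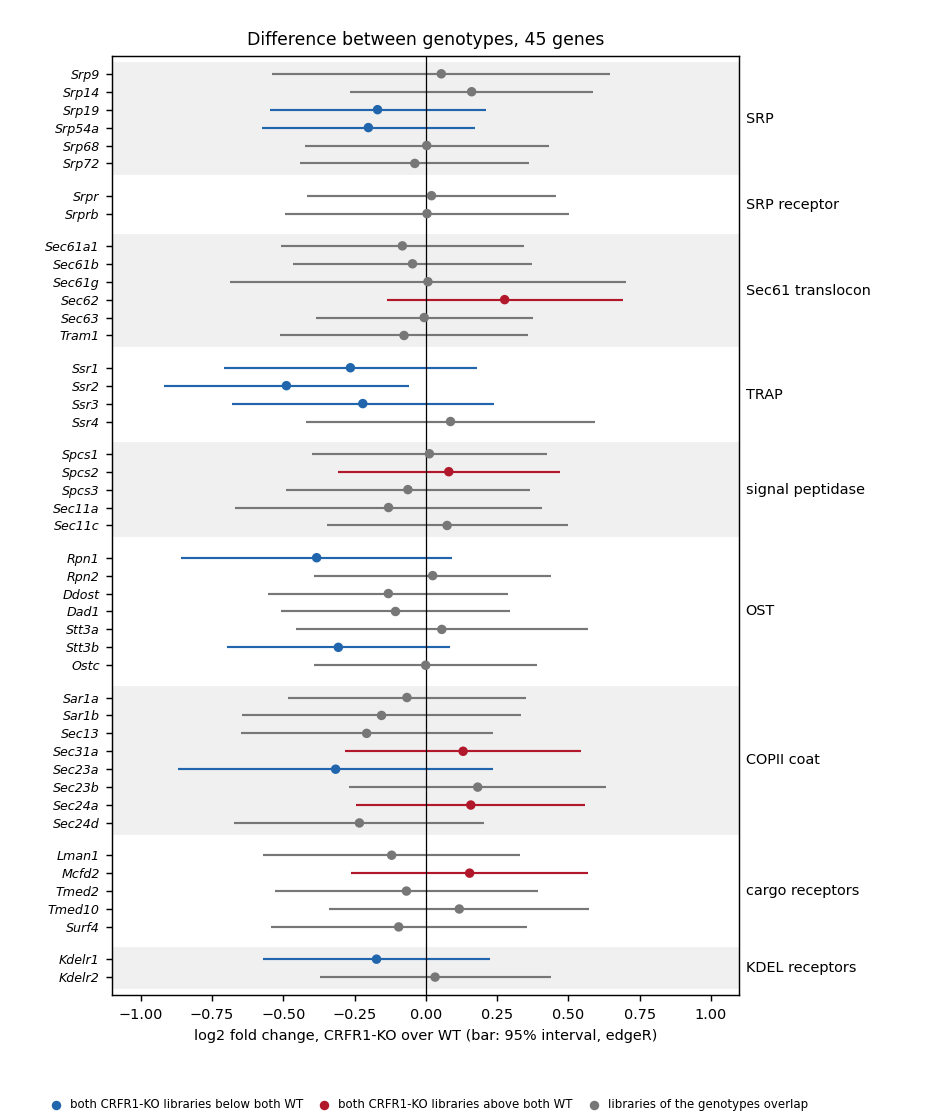
Log2 fold change of CRFR1-KO over WT (x axis) for the 45 genes (y axis), grouped by role; points are edgeR estimates from 2 libraries per genotype, bars are 95% intervals, and colours mark genes whose 2 CRFR1-KO libraries both lie below or above both WT libraries. The bar of Ssr2 is the one that does not reach 0, and every bar stays between -1 and 1.

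The spread within a genotype was of the same order as the difference between them. Between WT 1 and WT 2 the median absolute difference over the 45 genes was 0.18 on the log2 scale, and between CRFR1-KO 1 and CRFR1-KO 2 it was 0.11. The difference between the genotypes' fitted means had a median size of 0.11. A difference between means of 2 libraries varies less than one between single libraries, so these sizes are not on one scale. Srp9 differed most between the WT libraries in one direction (-0.62, WT 1 minus WT 2) and Stt3a in the other (0.55). Among CRFR1-KO libraries the extremes were Srprb (-0.54, CRFR1-KO 1 minus CRFR1-KO 2) and Sec61g (0.88). WT 2 was the highest library for 18 of the 45 genes and WT 1 for 13, against 7 for each CRFR1-KO library, whereas the lowest values were spread over WT 1 (12 genes), WT 2 (11), CRFR1-KO 1 (13) and CRFR1-KO 2 (9).

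The tissue was dominated by exocrine pancreas. The 24 acinar marker genes, all of them tested, took up 49.5% and 50.5% of all counts in wild-type tissue and 51.5% and 52.4% in the knockouts. On the TMM scale, used for every other level here, they summed to 418721 CPM in WT 1, 548858 CPM in WT 2, 577785 CPM in CRFR1-KO 1 and 508246 CPM in CRFR1-KO 2, so WT 1 was the low library, and 18 of the 24 lay higher in the knockouts. WT 1 stood apart in markers of other cells as well. The 12 fibroblast markers summed to 508 CPM in WT 1, 241 CPM in WT 2, 167 CPM in CRFR1-KO 1 and 188 CPM in CRFR1-KO 2, with 11 of 12 lower in the knockouts. The 10 macrophage markers, all lower in the knockouts, summed to 130 and 95.7 CPM in wild-type tissue and 46.9 and 75.6 CPM in the knockouts. Markers of plasma cells, which also secrete heavily, and of B cells summed to between 73.9 and 90.6 CPM in every library. Of these 10 genes only 3 were tested, all lower in the knockouts, and Mzb1 and Ms4a1 had a count of 0 in every library. Islet markers summed to 42.8 CPM in WT 1 and to between 244.5 and 302.0 CPM in the other 3 libraries, tumour and proliferation markers to 43.4 CPM in WT 1 and to between 3.21 and 5.13 CPM elsewhere, and duct markers to between 268.5 and 413.6 CPM, highest in WT 1. The part of these cells in the values below was not tested.

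**Figure D2:**
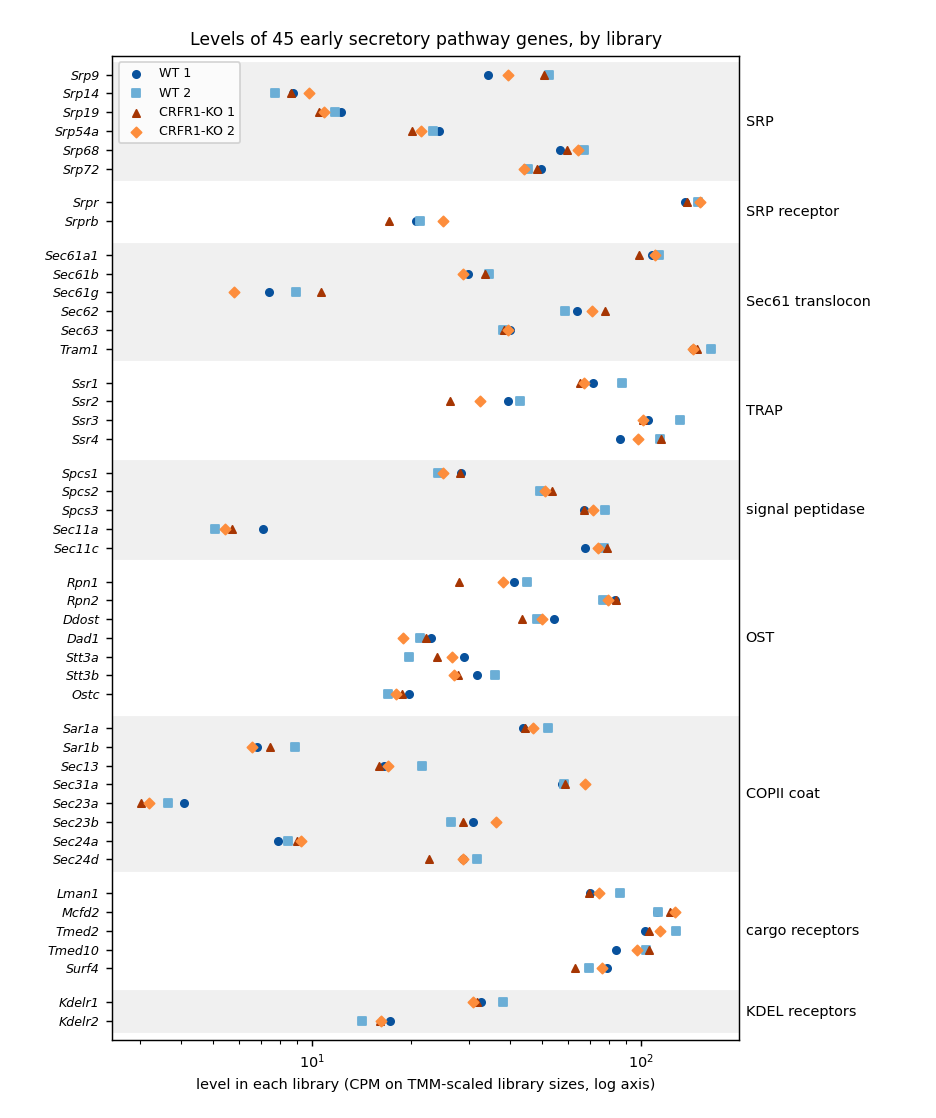
Level of each of the 45 genes (y axis, grouped by role) in each library, in TMM-scaled CPM on a log axis (x axis); each symbol is 1 library. The points of the 4 libraries fall together for most genes, with the widest spread on this axis for Sec61g (5.80 to 10.7 CPM), followed by Ssr2 (26.3 to 43.0 CPM), Rpn1 (28.0 to 45.2 CPM) and Srp9 (34.3 to 52.8 CPM).

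Both knockouts lay below both WT libraries for 9 of the 45 genes, against 16.9% of all genes tested, and above both for 5, against 16.6%. Among genes of at least 5 CPM, the level that 44 of the 45 reached, the shares were 13.8% lower and 18.2% higher. Those 9 were Srp19, Srp54a, Ssr1, Ssr2, Ssr3, Rpn1, Stt3b, Sec23a and Kdelr1, and those 5 were Sec62, Spcs2, Sec31a, Sec24a and Mcfd2. The remaining 31 overlapped between genotypes. All 14 kept their separation with DESeq2 size factors, with upper quartile scaling and with TMM computed without the acinar list. On library totals 7 of the 9 kept it, all but Srp19 and Srp54a, and 0 of the 5. On that scale both knockouts lay below both WT libraries for 12 genes and above for 0, against 21.6% and 6.44% of all genes.

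**Figure D3:**
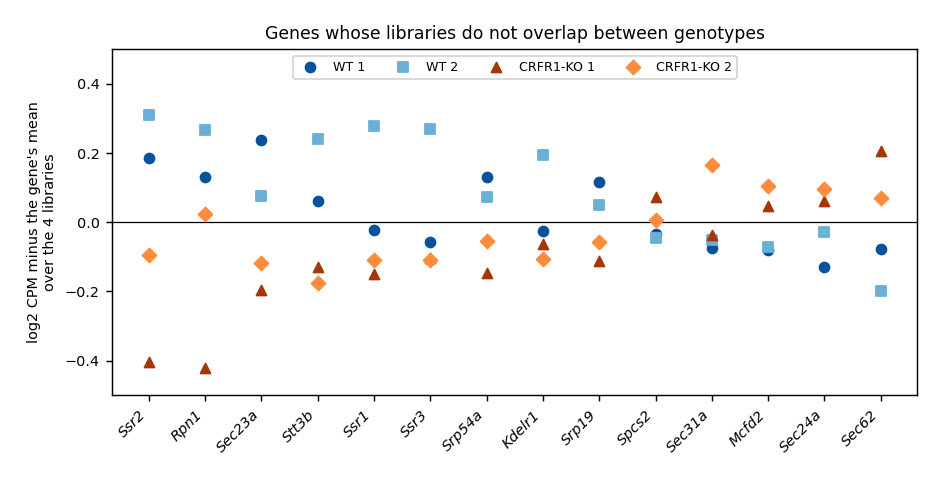
Log2 CPM of each library minus the gene's mean over the 4 libraries (y axis) for the 14 genes whose libraries did not overlap between genotypes (x axis, ordered by fold change); each symbol is 1 library. CRFR1-KO 1 is the lowest point for Ssr2 and Rpn1, and for Ssr3 the 2 CRFR1-KO points coincide at 101.4 and 101.7 CPM.

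Stretches before the start of 6 genes are shown as examples, and the choice does not test for a shared motif. Sec23a, Sec23b and Sec24d are COPII coat genes whose paired copies are compared further on. Ssr3, Rpn1 and Stt3b are among the genes that lay lower in both knockouts. Ssr1 and Kdelr1, also lower in both, are not shown and held none of the motifs counted below. Sequences are from RefSeq on GRCm38.p6, 5′ to 3′ on the gene's strand, and end at the base before the annotated start of the gene or of transcription, whichever comes first. Capitals mark a CCAAT box (CCAAT, or ATTGG on the other strand) and, in Sec23a, the ETS-type motif CCGGAAG on the other strand.
Sec23a (chr12:59012018-59012217, minus strand, 200 bases): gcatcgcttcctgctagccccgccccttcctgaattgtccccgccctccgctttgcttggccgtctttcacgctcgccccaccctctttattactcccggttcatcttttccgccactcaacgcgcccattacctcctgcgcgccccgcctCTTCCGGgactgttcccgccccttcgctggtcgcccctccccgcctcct
Sec23b (chr2:144556029-144556228, plus strand, 200 bases): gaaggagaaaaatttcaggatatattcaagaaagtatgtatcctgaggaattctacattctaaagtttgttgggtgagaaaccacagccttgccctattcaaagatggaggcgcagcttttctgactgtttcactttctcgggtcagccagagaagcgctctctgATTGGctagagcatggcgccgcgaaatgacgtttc
Sec24d (chr3:123267296-123267454, plus strand, 159 bases): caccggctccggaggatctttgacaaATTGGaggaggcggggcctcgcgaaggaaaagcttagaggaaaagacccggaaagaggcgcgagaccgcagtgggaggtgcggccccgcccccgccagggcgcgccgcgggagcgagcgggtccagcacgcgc
Ssr3 (chr3:65392624-65392753, minus strand, 130 bases): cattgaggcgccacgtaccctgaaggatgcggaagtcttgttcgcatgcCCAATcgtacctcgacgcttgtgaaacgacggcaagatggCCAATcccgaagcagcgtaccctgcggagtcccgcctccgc
Rpn1 (chr6:88084273-88084472, plus strand, 200 bases): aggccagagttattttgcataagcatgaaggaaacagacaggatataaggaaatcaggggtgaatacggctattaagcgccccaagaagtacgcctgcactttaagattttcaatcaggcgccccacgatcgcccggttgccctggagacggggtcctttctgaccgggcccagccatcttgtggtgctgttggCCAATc
Stt3b (chr9:115310469-115310668, minus strand, 200 bases): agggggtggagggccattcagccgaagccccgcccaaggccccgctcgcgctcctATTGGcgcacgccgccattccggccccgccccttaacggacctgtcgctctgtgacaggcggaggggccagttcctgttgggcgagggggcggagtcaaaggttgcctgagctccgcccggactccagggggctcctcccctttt

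Windows of 250 bases before to 50 bases after the RefSeq start were matched by symbol for 34 of the 45 genes and searched on both strands. Ostc, Tram1, Sec61a1, Kdelr2, Ssr2, Srp19, Sec11c, Srp68, Tmed2, Spcs3 and Lman1 were not matched. The ER stress response element (CCAAT and CCACG with 9 bases of any kind between them), which overlaps the CCAAT box, was in 0 of the 34, against 0.176% of the 10793 tested genes with a window. The unfolded protein response element TGACGTGG was in 2, or 5.88%, against 1.05%. Those were the coat genes Sec24d, where it began 26 bases before the RefSeq start and within the first exon of the GENCODE model, and Sec23a, where it began at base 7 of the transcript. The CCAAT box was in 17 of 34 (50.0%, against 42.5%), the ETS-type motif CCGGAAG in 10 (29.4%, against 19.1%) and the E-box CATATG in Sec31a and Srp14 (5.88%, against 2.13%). These are matches of letters and not measured binding sites.

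The signal recognition particle, a complex of RNA and protein, was represented by 6 protein subunits, of which 3 lay lower and 3 higher (median log2 fold change -0.02, from -0.20 to 0.16). Srp54a encodes the GTPase subunit that binds the signal peptide and stood at 24.4 and 23.4 CPM in WT 1 and WT 2, with 20.1 and 21.4 CPM in the knockouts. Both knockouts were below both WT libraries on the TMM scale, though not on library totals, by a log2 fold change of -0.20 (SE 0.16). Its count is uncertain, because 70.5% of the 50-base windows of its transcripts also occur in transcripts of the neighbouring copies Srp54b and Srp54c. Summed over the 3 copies, the level was 89.2 and 84.6 CPM in wild-type tissue and 81.7 and 76.5 CPM in the knockouts. These did not overlap on the TMM scale, and the log2 ratio of the means was -0.13. Srp19, which helps load the GTPase subunit onto the particle's RNA, had 12.3 and 11.8 CPM in wild-type tissue and 10.5 and 10.9 CPM in the knockouts (log2 fold change -0.17, SE 0.16). Smaller shares of such windows were found in transcripts of other genes for Tmed2 (22.0%), Srprb (19.9%), Srpr (17.7%), Sec61b (17.4%) and Sec61g (14.8%), whose counts could be affected by how reads matching several genes were counted.

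Srp68 and Srp72, a pair of large subunits that bind each other, had log2 fold changes of 0.0030 (SE 0.18) and -0.04 (SE 0.17). Srp9 and Srp14, the pair that slows translation during targeting, stood at 0.05 (SE 0.25) and 0.16 (SE 0.18). The wide error of Srp9 came with 34.3 CPM in WT 1 and 52.8 CPM in WT 2, which enclosed both knockout values (50.9 and 39.4 CPM). Srpr, the docking subunit of the receptor, stood at 142.7 ± 9.2 CPM in wild-type tissue and 144.6 ± 9.7 CPM in the knockouts (mean ± SD of 2 libraries). Srprb, its membrane anchor, stood at 21.03 ± 0.34 CPM against 21.08 ± 5.49 CPM by the same measure. Their log2 fold changes of 0.02 and 0.0039 were far below their SEs of 0.18 and 0.21.

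Of the 6 translocon genes, 4 lay lower and 2 higher (median -0.03), and only Sec62 did not overlap between genotypes. Sec61a1 encodes the pore-forming subunit and stood at 107.9 and 113.4 CPM in wild-type tissue and 98.5 and 110.5 CPM in the knockouts, so the genotypes overlapped (log2 fold change -0.08, SE 0.18). Its small partners Sec61b and Sec61g had log2 fold changes of -0.05 (SE 0.18) and 0.0072 (SE 0.29), and Tram1, which aids the insertion of some chains, had -0.08 (SE 0.18). Sec62 and Sec63 help chains that enter after translation. Sec62 stood at 64.0 and 58.8 CPM in WT 1 and WT 2, and at 77.8 and 70.9 CPM in the knockouts, which were the higher ones (log2 fold change 0.28, SE 0.18, 95% interval -0.14 to 0.69). On library totals Sec62 overlapped. Sec63 lay within 38.2 to 39.9 CPM in all 4 libraries.

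Subunits of the translocon-associated protein complex (TRAP), which sits beside the Sec61 channel and assists some signal peptides, lay lower in the knockouts with an exception. Ssr2, the beta subunit, stood at 39.5 and 43.0 CPM in WT 1 and WT 2, with 26.3 and 32.5 CPM in the knockouts. Its log2 fold change was -0.49 (SE 0.18, 95% interval -0.92 to -0.06), the lowest of the 45, and it did not pass after adjustment in edgeR (adjusted p = 0.9999). Ssr1, the alpha subunit, had 71.3 and 87.8 CPM in wild-type tissue and 65.3 and 67.2 CPM in the knockouts, a difference of -0.26 (SE 0.19). Ssr3, the gamma subunit, had 105.1 and 131.7 CPM in wild-type tissue and 101.7 and 101.4 CPM in the knockouts, a difference of -0.22 (SE 0.19). In both genes WT 2 was the high library and WT 1 lay close to the knockout values. Without WT 2 the difference was -0.10 for Ssr1 and -0.045 for Ssr3, and without WT 1 it was -0.41 and -0.37. Ssr4, the delta subunit, overlapped, at 86.2 and 114.5 CPM in wild-type tissue and 115.4 and 97.7 CPM in the knockouts (log2 fold change 0.09, SE 0.22).

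The median of the 4 subunits was -0.24, and it was -0.39 without WT 1 and -0.07 without WT 2. Without WT 1, Ssr1 joined Ssr2 at an unadjusted edgeR p under 0.05, and without any of the other 3 libraries neither gene had one. The ratio of Ssr2 to Ssr4 counts, which depends on no scaling and was chosen after the values were seen, was 0.458 and 0.376 in wild-type tissue and 0.227 and 0.33 in the knockouts. Ssr2 and Ssr4 differed in direction when they were chosen, so this separation adds no support. Ratios of Ssr1 and Ssr3 to Ssr4, Rpn1 to Rpn2 and Sec62 to Sec61a1 were taken in the same way and did not overlap either. A predicted gene on the opposite strand, Gm10704, overlaps exons of Ssr2. It had 82 and 72 counts in wild-type tissue and 117 and 82 in the knockouts, against 1641 to 3266 for Ssr2. The strand setting of the counting is not given in the sources used here, so how reads were divided between such partners cannot be told.

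Signal peptidase genes, 3 higher and 2 lower, had log2 fold changes smaller than their SEs. Spcs2, an accessory subunit, was the sole member of 5 without overlap, at 49.8 and 49.4 CPM in wild-type tissue and 53.7 and 51.2 CPM in the knockouts (log2 fold change 0.08, SE 0.17). Spcs1 and Spcs3 stood at 0.01 and -0.06, and Spcs1 overlaps Glt8d1, on the opposite strand, which had 15.1% to 22.6% as many counts. The enzyme exists with either of 2 catalytic subunits. Sec11c, the more abundant, had 67.9 and 77.5 CPM in wild-type tissue and 79.01 and 74.02 CPM in the knockouts, and Sec11a had 7.12 and 5.09 CPM in wild-type tissue and 5.71 and 5.45 CPM in the knockouts. Their log2 fold changes of 0.07 (SE 0.18) and -0.13 (SE 0.23) were within their errors.

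Oligosaccharyltransferase transfers a preassembled glycan to asparagine residues of the entering chain, and 5 of its 7 measured subunits lay lower in the knockouts (median -0.11). Rpn1, or ribophorin I, had 41.1 CPM in WT 1 and 45.2 CPM in WT 2, with 28.0 and 38.1 CPM in the knockouts. The log2 fold change was -0.38 (SE 0.20, 95% interval -0.86 to 0.09), and it was -0.18 without CRFR1-KO 1, the low library. Its partner Rpn2, ribophorin II, overlapped at 83.7 and 76.9 CPM in wild-type tissue and 84.0 and 79.2 CPM in the knockouts (log2 fold change 0.02, SE 0.18). The remaining accessory subunits Ddost, Dad1 and Ostc stood at -0.13, -0.11 and -0.00078.

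The catalytic subunit comes in 2 forms, of which Stt3a acts as the chain enters and Stt3b also on sites that were skipped. Stt3b had 31.9 and 36.1 CPM in wild-type tissue and 27.9 and 27.1 CPM in the knockouts, without overlap (log2 fold change -0.31, SE 0.17, 95% interval -0.70 to 0.08). Stt3a had 28.9 CPM in WT 1 and 19.8 CPM in WT 2, with 23.98 and 26.7 CPM in the knockouts, so that the WT libraries enclosed both knockouts (log2 fold change 0.06, SE 0.22).

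Genes of the COPII coat lay on both sides, 5 lower and 3 higher (median -0.11). Sar1a and Sar1b encode the GTPases that start coat assembly and overlapped between genotypes. Sar1a had 43.8 and 52.1 CPM in wild-type tissue and 44.5 and 47.0 CPM in the knockouts, and Sar1b had 6.81 and 8.89 CPM in wild-type tissue and 7.49 and 6.60 CPM in the knockouts (log2 fold changes -0.07 and -0.16, SE 0.18 and 0.21). In the outer layer, Sec31a had 57.5 and 58.3 CPM in wild-type tissue and 58.9 and 67.8 CPM in the knockouts, without overlap (log2 fold change 0.13, SE 0.18), while Sec13, its partner, stood at -0.21 (SE 0.19) with WT 2 the high library at 21.7 CPM. Without WT 2 the difference of Sec13 was 0.0038, and without CRFR1-KO 2, the high library of Sec31a, that of Sec31a was 0.035.

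The inner layer is built of Sec23 and the cargo-binding Sec24, each encoded by more than 1 gene. Sec23a had 338 and 239 counts in the wild-type libraries and 189 and 209 in the knockouts, or 4.09 and 3.65 CPM against 3.02 and 3.19 CPM (log2 fold change -0.32, SE 0.23). Sec23b had 30.9 and 26.5 CPM in wild-type tissue and 28.8 and 36.4 CPM in the knockouts, with overlap (log2 fold change 0.18, SE 0.19). Sec24a had 7.90 and 8.48 CPM in wild-type tissue and 9.02 and 9.24 CPM in the knockouts, without overlap (log2 fold change 0.16, SE 0.17). Sec24d had 28.83 and 31.8 CPM in wild-type tissue and 22.8 and 28.86 CPM in the knockouts (log2 fold change -0.23, SE 0.19), an overlap by a margin of under 0.1 CPM that closed with upper quartile scaling. Sec23b and Sec24d each rested on 1 knockout: the difference of Sec23b was 0.012 without CRFR1-KO 2 and 0.34 without CRFR1-KO 1, and that of Sec24d was -0.41 without CRFR1-KO 2 and -0.07 without CRFR1-KO 1.

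Each of these paired copies had the same dominant partner in all 4 libraries, on a scale of CPM per kb of annotated exon. Sec11c exceeded Sec11a 8.71-fold, Sec23b exceeded Sec23a 6.75-fold, Sec24d exceeded Sec24a 5.44-fold and Stt3b exceeded Stt3a 2.63-fold (geometric means of the 4 libraries). Sar1b stood at 0.471 times Sar1a, and Kdelr2 at 0.491 times Kdelr1. With the length of the longest coding transcript in place of all exons the order within every pair was the same, and the folds were 20.1, 13.0, 5.43, 1.73, 0.344 and 0.419 in the order given. A change between genotypes does not depend on the length. Sec23b to Sec23a was 5.81 and 5.58 in wild-type tissue against 7.31 and 8.75 in the knockouts, without overlap. Sec24d to Sec24a was 6.16 and 6.34 in wild-type tissue and 4.26 and 5.27 in the knockouts, without overlap in the other direction. The other 4 of the 6 ratios overlapped. With 2 libraries against 2 an exact two-sided permutation test cannot go below p = 0.33. Any single ratio without overlap has that p, so a separation of this kind is common among random arrangements of the libraries. The ratios are given as values, and no model was fitted to them.

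**Figure D4:**
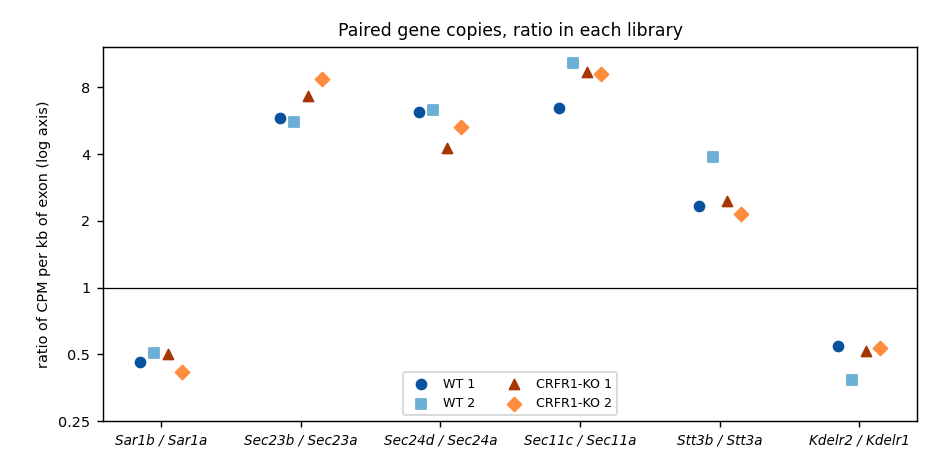
Ratio of the levels of 6 paired gene copies (x axis) in CPM per kb of exon, on a log axis (y axis); each symbol is 1 library and the line marks equal levels. Sec23b to Sec23a lies higher in both knockouts and Sec24d to Sec24a lower, while the other 4 ratios overlap between genotypes.

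Cargo receptors link ER contents to the coat, and the 5 measured had log2 fold changes between -0.12 and 0.15. Lman1, a lectin that carries glycoproteins such as coagulation factors, stood at 78.3 ± 11.7 CPM in wild-type tissue and 72.0 ± 3.7 CPM in the knockouts (mean ± SD, n = 2 each), a log2 fold change of -0.12 (SE 0.19). Mcfd2, the calcium-binding partner of Lman1, did not overlap, at 111.9 and 112.7 CPM in wild-type tissue and 122.4 and 127.3 CPM in the knockouts (log2 fold change 0.15, SE 0.18), although it did on library totals. Tmed2 and Tmed10, members of the p24 family, stood at -0.07 (SE 0.20) and 0.12 (SE 0.19). Surf4, a receptor for soluble cargo, stood at -0.10 (SE 0.19), and Surf2, which overlaps it on the opposite strand, had 9.35% to 13.2% as many counts.

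KDEL receptors return escaped ER proteins from the Golgi. Kdelr1 had 32.7 CPM in WT 1 and 38.0 CPM in WT 2, with 31.8 and 30.9 CPM in the knockouts, a log2 fold change of -0.17 (SE 0.17) without overlap, with WT 1 within 1 CPM of CRFR1-KO 1. Without WT 2 the difference was -0.056, and without WT 1 it was -0.28. Kdelr2 had 17.3 and 14.2 CPM in wild-type tissue and 16.1 and 16.2 CPM in the knockouts, with overlap (log2 fold change 0.03, SE 0.17).

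The other genes of the early secretory pathway were read from a list of 119, which covered further insertion factors, glycan assembly and trimming, exit-site proteins, p24 and cargo receptors, SNAREs and tethers, the COPI coat and transcription factors of secretory cells. All 119 were tested and 0 passed an adjusted p of 0.05 in edgeR, where 0 had an unadjusted p under 0.05 as well. The DESeq2 Wald test and limma-voom also called 0 after adjustment, with 1 and 0 at an unadjusted p under 0.05. In edgeR 66 lay higher and 53 lower, with a median of 0.02 on the log2 scale. The share lower was 44.5%, against 50.8% of all genes tested and 47.6% of those with a mean of at least 5 CPM. On the TMM scale, both knockouts were above both WT libraries for 24 of the 119 (20.2%), against 16.6% of all genes. Both were below for 15 (12.6%), against 16.9%. Among all genes of at least 5 CPM, a level that not all of the 119 reached, the shares were 18.2% higher and 13.8% lower. The COPI coat, which carries the return traffic, had 10 of 13 genes higher, all between -0.16 and 0.10 and each smaller in size than its SE. Exit-site and other COPII genes had 8 of 13 higher (median 0.10), dolichol-linked glycan assembly 11 of 23 (median -0.03), and SNAREs and tethers, which fuse the vesicles, 3 of 11 (median -0.04).

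Among them, the genes of at least 5 CPM with the smallest edgeR p did not overlap between genotypes on the TMM scale, which choosing by p favours. Below that level, Bcap29 (1.87 CPM) and Tusc3 (4.81 CPM) had a smaller edgeR p than any of these and lay lower in both knockouts. Dolpp1 (2.53 CPM, log2 fold change 0.58) and Tango2 (4.61 CPM, 0.37) lay higher in both on the TMM scale. Their edgeR p was smaller than that of Mia3 and Bag6, given below. Tmco1, an ER membrane protein, had 10.5 and 8.43 CPM in wild-type tissue and 13.5 and 11.6 CPM in the knockouts (log2 fold change 0.40, SE 0.19). Rab1b, a GTPase of ER-to-Golgi transport, lay lower, at 21.97 and 22.4 CPM in wild-type tissue and 18.7 and 18.04 CPM in the knockouts (-0.27, SE 0.16). Another 3 lay higher: the coat gene Sec24c at 26.04 and 23.5 against 30.7 and 29.3 CPM (0.28, SE 0.16), the exit-site gene Mia3 at 37.1 and 36.2 against 42.6 and 44.9 CPM (0.26, SE 0.16), and the chaperone gene Bag6 at 15.1 and 14.6 against 17.6 and 17.5 CPM (0.24, SE 0.15). Bhlha15 encodes MIST1, a transcription factor of secretory cells that is also among the 24 acinar markers, and stood at 139.3 and 131.2 CPM in WT 1 and WT 2, with 164.0 and 192.0 CPM in the knockouts (log2 fold change 0.40, SE 0.19, 95% interval -0.05 to 0.84). Xbp1, a transcription factor of the unfolded protein response that drives many genes of this route in secretory cells, had 262.0 and 258.3 CPM in wild-type tissue and 313.2 and 271.6 CPM in the knockouts (log2 fold change 0.17, SE 0.19). On the TMM scale both factors were higher in both knockouts, and neither passed the adjusted edgeR threshold. On library totals both overlapped between genotypes, as did Tmco1, Sec24c, Mia3 and Bag6, while Rab1b stayed lower in both knockouts.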

How the data were processed

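RNA-seq of tissue beside pancreatic tumours was analysed in 2 WT and 2 CRFR1-KO libraries. The authors deposited whole-number counts per Ensembl gene and library, without normalization, in a table whose columns were matched by the library names in the labels. Poly(A) RNA was made into dUTP libraries, per the labels' protocols. FastQC, DESeq2 and edgeR are named in the submitters' processing notes, and neither the aligner and counting program nor the strand setting, annotation, genome build and what a single count stands for is given in the sources used here. Symbols, exon lengths and overlaps came from GENCODE M21 (GRCm38), which named 55141 of 55401 identifiers.

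The main test was that of edgeR 4.0.16, run in R 4.3.3 (TMM scaling, filterByExpr defaults, quasi-likelihood F test, two-sided with genotype as the sole term) over all 15131 genes passing the filter, with Benjamini-Hochberg adjustment at 0.05. An SE was derived from the F statistic, and 95% intervals from the same fit. A fold change is knockout over wild-type. The script was tested on simulated data with the mean levels and library sizes of these libraries. There 24.9% of 2-fold and 74.0% of 4-fold changes, placed on genes of any level, passed the adjusted edgeR threshold. A gene that did not pass may therefore still differ. Alternatives were other scalings and filters, the DESeq2 1.42.0 Wald test, limma-voom (limma 3.58.1), robust estimation, summing models that share exons, counts divided by 4, a replicate block, a threshold of 0.1 and leaving out each library. No pair of libraries was a duplicate (smallest chi-square per degree of freedom, 40.9). Depth was between 63495457 and 71203640 counts per library, and the SE of single genes shows the precision it gives.

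The genes, roles and lists were chosen with earlier results of these data known. Named with all values were, by rule, members without overlap between genotypes (up to 16, by p), 6 paralogue pairs and up to 6 other pathway genes of at least 5 CPM by smallest p, with Xbp1 and Bhlha15. The remaining members are given by role.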

Additional observations from a re-analysis of the deposited data

How the results depend on the processing

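In all alternatives run, including each left-out library and a threshold of 0.1, 0 of the 45 genes and 0 of the 119 other pathway genes passed the adjusted threshold. The count over all genes was 4, and it was 58 with the DESeq2 Wald test, 0 with limma-voom, 7 with the replicate block, 0 with exon-sharing models summed, and from 0 to 69 without each library. Same-numbered libraries of the 2 genotypes are not said to be paired and their deviations correlated at r = -0.10 over 5906 genes; with the numbers crossed, an alternative added after seeing the data, 13 genes passed over all genes and 0 of the 45. The median of the 45 genes (-0.05) was -0.17 on library totals and from -0.10 to 0.0038 without each library, lowest without WT 1 and highest without WT 2. With the longest coding transcript as length, also added after seeing the data, log2 ratios were -1.54 for Sar1b to Sar1a, 3.70 for Sec23b to Sec23a, 4.33 for Sec11c to Sec11a and 0.79 for Stt3b to Stt3a. Without each library the ratios ranged from -1.12 to -1.03 (Sar1b to Sar1a), 2.63 to 2.85 (Sec23b to Sec23a), 2.37 to 2.56 (Sec24d to Sec24a), 3.04 to 3.27 (Sec11c to Sec11a), 1.21 to 1.49 (Stt3b to Stt3a) and -1.08 to -0.91 (Kdelr2 to Kdelr1).

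Of 52 genes named with a fold change, 25 kept their direction throughout and 27 changed sign at least once, in 68 of 833 pairs of a gene and an alternative. None gained a call. On library totals Srp9, Srp68, Srpr, Srprb, Sec61g, Ssr4, Spcs1, Spcs2, Sec11c, Rpn2, Stt3a and Kdelr2 turned to -0.048, -0.11, -0.095, -0.10, -0.13, -0.024, -0.14, -0.051, -0.045, -0.11, -0.10 and -0.11. Srp68 turned to -0.00094 with DESeq2 size factors, -0.0049 with upper quartile scaling, -0.0032 without a filter, -0.0047 with 1 CPM in 2 libraries, -0.00082 in the DESeq2 Wald test and -0.00083 with counts divided by 4. Srprb turned to -0.0047 with upper quartile scaling, -0.0029 without a filter, -0.0039 with 1 CPM in 2 libraries, -0.0011 with counts divided by 4, -0.020 in limma-voom and -0.021 with the replicate block. Sec61g turned to -0.00098 with 1 CPM in 2 libraries, -0.050 in limma-voom and -0.048 with the replicate block, and Ostc to 0.0017 and 0.0030 in the latter 2. Without each library, the genes that changed sign ranged as follows: Srp9 from -0.22 to 0.40, Srp68 from -0.11 to 0.13, Srp72 from -0.10 to 0.034, Srpr from -0.043 to 0.092, Srprb from -0.28 to 0.25, Sec61b from -0.16 to 0.070, Sec61g from -0.49 to 0.39, Sec63 from -0.033 to 0.027, Tram1 from -0.16 to 0.019, Ssr4 from -0.10 to 0.31, Spcs1 from -0.095 to 0.14, Spcs3 from -0.17 to 0.054, Sec11a from -0.35 to 0.14, Sec11c from -0.017 to 0.18, Rpn2 from -0.032 to 0.088, Dad1 from -0.22 to 0.013, Stt3a from -0.19 to 0.36, Ostc from -0.098 to 0.11, Sar1a from -0.19 to 0.070, Sar1b from -0.33 to 0.053, Sec13 from -0.39 to 0.0038, Lman1 from -0.26 to 0.045, Tmed2 from -0.21 to 0.098, Tmed10 from -0.025 to 0.28, Surf4 from -0.23 to 0.038 and Kdelr2 from -0.099 to 0.18. Others kept their sign without each library but moved by over 1.5 times, among them Sec61a1, from -0.16 to -0.00072, Ddost, from -0.23 to -0.032, Srp14, from 0.077 to 0.26, Spcs2, from 0.048 to 0.12, and Rpn1, from -0.61 to -0.18. A fit without a library assumes that the lone library of its group varies like the other group. The causes were not tested.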
